A study of Mus musculus with 6 samples.

Results

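The 37 genes described here encode proteins of the lysosome, the acidic compartment in which cells break down protein, glycan and lipid, and they were taken by symbol from a list that was drawn up with earlier results of these data known. All 37 were among the 24411 genes of the count table, and all 37 passed the filter on low counts, which left 13466 genes for testing. Achilles tendons of 18-week-old C57BL/6 mice gave 6 RNA-seq libraries, 3 of them wild type (WT). The other 3 were Scx-Cre/Piezo1 GOF, where Cre is driven by sequence of Scx, a transcription factor gene of tendon and ligament cells, and GOF marks a gain-of-function form of Piezo1, an ion channel opened by force on the membrane. For the WT mice the labels give no Cre and no Piezo1 allele, so Cre and the allele cannot be told apart in the comparison, and the labels do not say whether each library came from a separate animal. The p-values therefore rest on the spread among the 3 libraries of a genotype, and that spread may be technical. Levels are CPM, counts brought to a common library size with TMM factors, listed for replicates 1 to 3 in that order. Differences are log2 fold changes of Piezo1 GOF over WT with their standard errors (SE) from edgeR's quasi-likelihood test, 3 libraries per genotype.

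Lysosomal enzymes are made in the endoplasmic reticulum, tagged with mannose 6-phosphate in the Golgi and carried to the lysosome by mannose 6-phosphate receptors, where a proton pump (the V-ATPase) keeps the lumen acidic. Proteases (cathepsins), glycosidases, sulfatases and lipid hydrolases do the digestion, and heavily glycosylated membrane proteins line the organelle. The transcription factor TFEB and its relatives of the MiT family bind a palindromic promoter element (the CLEAR element) at many of these genes. Most lysosomal genes are active in nearly every cell, but cathepsin S (Ctss) and the membrane protein Laptm5 are mainly products of macrophages and other cells of haematopoietic origin.

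RefSeq promoter windows (GRCm38.p6, the assembly of mm10; 250 bases before to 50 after the transcription start) were at hand for 33 of the 37 genes. The letters TCACGTGA, the core of the CLEAR element, stood in 3 of the 33 windows (9.09%), against 1.12% of 27025 genes with a window. The shorter CACGTG, which lies within TCACGTGA, stood in 10 of 33 (30.3%), against 8.09%. With a G added before it and a C after it, the longer form stood in 0 of 33, against 0.37%. All 3 are palindromes, so 1 search covers both strands. The 3 genes with TCACGTGA are shown because they hold the longest form found, and Lamp1, chosen after the windows were read, because it holds CACGTG at 4 places. Each line runs 5′ to 3′ on the gene's strand up to the transcription start, with TCACGTGA (for Lamp1, CACGTG) in capitals.
Ctsa (chr2:164833623-164833772, plus strand): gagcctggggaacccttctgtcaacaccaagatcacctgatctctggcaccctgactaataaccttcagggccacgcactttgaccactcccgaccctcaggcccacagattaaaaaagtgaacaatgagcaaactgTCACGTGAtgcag
Ctsd (chr7:142387828-142387977, minus strand): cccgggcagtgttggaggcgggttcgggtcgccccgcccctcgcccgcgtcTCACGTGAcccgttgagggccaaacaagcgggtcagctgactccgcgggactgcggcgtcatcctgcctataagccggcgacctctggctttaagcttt
Mcoln1 (chr8:3500369-3500518, plus strand): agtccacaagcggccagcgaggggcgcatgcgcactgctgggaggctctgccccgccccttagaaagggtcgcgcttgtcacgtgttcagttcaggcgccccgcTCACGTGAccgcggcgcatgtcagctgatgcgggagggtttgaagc
Lamp1 (chr8:13159061-13159160, plus strand): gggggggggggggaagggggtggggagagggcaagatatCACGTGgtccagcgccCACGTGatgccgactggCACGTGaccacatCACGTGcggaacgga
The log2 fold changes of the 3 genes with TCACGTGA were 0.45 ± 0.19 for Ctsa (edgeR unadjusted p = 0.0423), -0.69 ± 0.32 for Ctsd (0.0582) and -0.34 ± 0.19 for Mcoln1 (0.103). Lamp1, which holds CACGTG but not TCACGTGA, was at -0.040 ± 0.27. The 10 genes with CACGTG had log2 fold changes with a median of 0.066, and the 23 without it a median of 0.31. A second motif was searched after the values were seen, GAGGAAGT (reverse complement ACTTCCTC), a binding sequence of the myeloid transcription factor PU.1. It stood in 3 of 33 windows (9.09%), those of Ctss, Ctsc and Gusb, against 3.69% of all genes, and was not in the window of Laptm5. The windows of Ctss, which ends 6 bases past the start because the motif crosses it, and of Ctsc follow, with ACTTCCTC in capitals. A match describes the letters of a window and is not evidence of binding.
Ctss (chr3:95526642-95526791, plus strand): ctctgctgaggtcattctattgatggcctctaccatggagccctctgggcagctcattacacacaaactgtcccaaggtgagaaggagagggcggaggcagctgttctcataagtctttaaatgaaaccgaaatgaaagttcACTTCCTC
Ctsc (chr7:88277925-88278084, plus strand): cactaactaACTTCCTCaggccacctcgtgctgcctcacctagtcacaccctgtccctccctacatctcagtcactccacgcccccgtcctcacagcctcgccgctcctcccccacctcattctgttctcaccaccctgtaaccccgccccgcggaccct

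The libraries differed in marker levels of several cell types. Total counts lay between 8131527 and 17180856. All 11 tenocyte markers were detected in every library, and their summed level was 18229.8, 5464 and 12825 CPM in WT and 42271, 70941 and 39421 CPM in Piezo1 GOF. The 18 skeletal muscle markers summed to 77337, 173228 and 149507 CPM in WT and 76408, 24297 and 63702 CPM in Piezo1 GOF, and WT replicate 2 had the most muscle and the least tenocyte signal of the 6. The 17 macrophage markers, none of them among the 37 genes, summed to 265, 194 and 311 CPM in WT and 699, 733 and 874 CPM in Piezo1 GOF. Higher at an unadjusted edgeR p under 0.05 were 14 of the 17 macrophage markers, 11 of the 11 tenocyte markers and 4 of 5 adipocyte markers, against 10.2% of all genes tested, and no macrophage marker was at 0 in a whole genotype. Of the 18 muscle markers, 1 was lower at that p (5.56%, against 9.59% of all genes tested) and 0 were higher. The part of these cell types in the lysosomal values was not tested. In bulk RNA a change in the number of cells of a type and a change in RNA per cell cannot be told apart.

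In WT tendon the 37 genes spanned a wide range of levels once CPM was divided by transcript length (longest coding transcript of GENCODE release M21). Psap, the precursor of the saposins that help enzymes reach sphingolipids, stood first at 208 ± 23.3 CPM per kilobase (SD, n = 3). The aspartic protease gene Ctsd at 207 ± 70.9 and the membrane glycoprotein gene Lamp1 at 205 ± 12.2 CPM per kilobase lay within that spread. Laptm4a followed at 162 ± 57.6, and below these 4 came Grn (67.4 ± 20.1 CPM per kilobase), Ctsb (67.4 ± 17.8), Gaa (54.6 ± 25.8), Lamp2 (52.4 ± 4.91) and Ctsz (49.1 ± 9.65), which did not separate from one another beyond their spread. Ctss was 27th at 7.29 ± 2.86 CPM per kilobase and Laptm5 34th at 3.68 ± 1.75, and Galc, the galactosylceramidase gene, was last at 1.77 ± 0.591. In Piezo1 GOF, Ctss reached 32.8 ± 7.0 and Laptm5 13.4 ± 0.861 CPM per kilobase.

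More of the lysosomal genes were higher than lower in Piezo1 GOF. The log2 fold changes were largest for Ctss and Laptm5, and Ctsh (1.37) and Ctsc (1.003) came next. Of the 37, 24 had positive and 13 negative log2 fold changes, with a median of 0.25 and a range from -0.85 (Gaa) to 2.18 (Ctss), while the median over all 13466 genes was -0.0045. At an unadjusted edgeR p under 0.05, 11 were higher (29.7%, against 10.2% of all genes tested) and 2 lower (5.41%, against 9.59%). The 11 were Ctss, Laptm5, Npc2, Ctsf, Gusb, Ids, Ctsc, Ctsh, Ctsb, Ppt1 and Ctsa, and the 2 were Gaa and Scarb2. After Benjamini-Hochberg adjustment over all genes, 0 of 37 passed 0.05 by edgeR's quasi-likelihood test, which called 0.0149% of all genes higher and 0% lower. By DESeq2, 4 passed and were higher (Ctss, Laptm5, Npc2 and Ctsf; 3.46% of all genes higher), as they did by edgeR's exact test (3.36%), and by limma voom with sample quality weights Ctss and Laptm5 passed (0.72%). None passed as lower by any of these tests (2.51%, 1.76% and 0.141% of all genes).

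The number of genes at an unadjusted p under 0.05 depended on single libraries, and so did the share of all genes. Without WT replicate 1 it was 14 higher (13.3% of all genes) and 3 lower (9.99%), and 3 genes (Ctss, Ctsh and Ppt1) passed after adjustment by edgeR, with 1.32% of all genes higher and 0.332% lower. It was 7 higher (6.93%) and 0 lower (6.11%) without WT replicate 2, and 5 higher (7.4%) and 2 lower (6.16%) without WT replicate 3. Without Piezo1 GOF replicate 1 it was 10 higher (10.2%) and 2 lower (10.7%), without replicate 2 of that genotype 8 (7.07%) and 0 (4.64%), and without replicate 3 of it 7 (8.7%) and 0 (6.19%). With total counts as the only scaling it was 11 higher (10.6%) and 1 lower (6.92%), and with the replicate number as a block 8 higher (7.57%) and 0 lower (5.98%). Without a count filter, Ctss and Laptm5 passed after adjustment (0.767% of all genes higher and 0.131% lower). Ctss, Laptm5, Npc2, Ctsf and Gusb kept an unadjusted p under 0.05 without any 1 library. The median log2 fold change of the 37 was 0.41 when WT replicate 1 was left out and 0.15 when WT replicate 2 was. With the skeletal muscle score (the mean log2 CPM of the 18 muscle markers in a library) as a covariate, Ctss, Laptm5, Npc2, Ctsf, Ctsc and Gusb had an unadjusted edgeR p under 0.05, all of them higher, and no gene was lower (6.13% of all genes higher and 4.63% lower). WT replicate 2 was the lowest of the WT libraries for 16 of the 37 genes (43.2%, against 37.8% of all genes tested) and the highest for 10 (27.0%, against 34.7%). Of the 11 genes higher at an unadjusted p under 0.05 in the main fit, it was the lowest WT library for 8 (72.7%) and the highest for 0. For the 2 lower genes it was the highest. These genes were called from the same values, and the same share over all genes called higher or lower was not counted. The counts of 8 and 2 therefore have no matching share to be read against. In TMM-scaled CPM the groups did not overlap for 15 genes that were higher (40.5%, against 13.6% of all genes) and 4 that were lower (10.8%, against 12.1%). The TMM factor was 1.095 for WT replicate 1 and 0.947 for Piezo1 GOF replicate 1, with total counts of 8519513 and 8131527, so gaps between the groups depend on the scaling. Overlap was not counted on total counts alone. The 37 genes together summed to 3878, 3710.4 and 3353 CPM in WT and 3971, 4568 and 4109.8 CPM in Piezo1 GOF. With TMM scaling the lowest mutant library was thus just above the highest WT library, an order that depends on these factors.

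**Figure D1:**
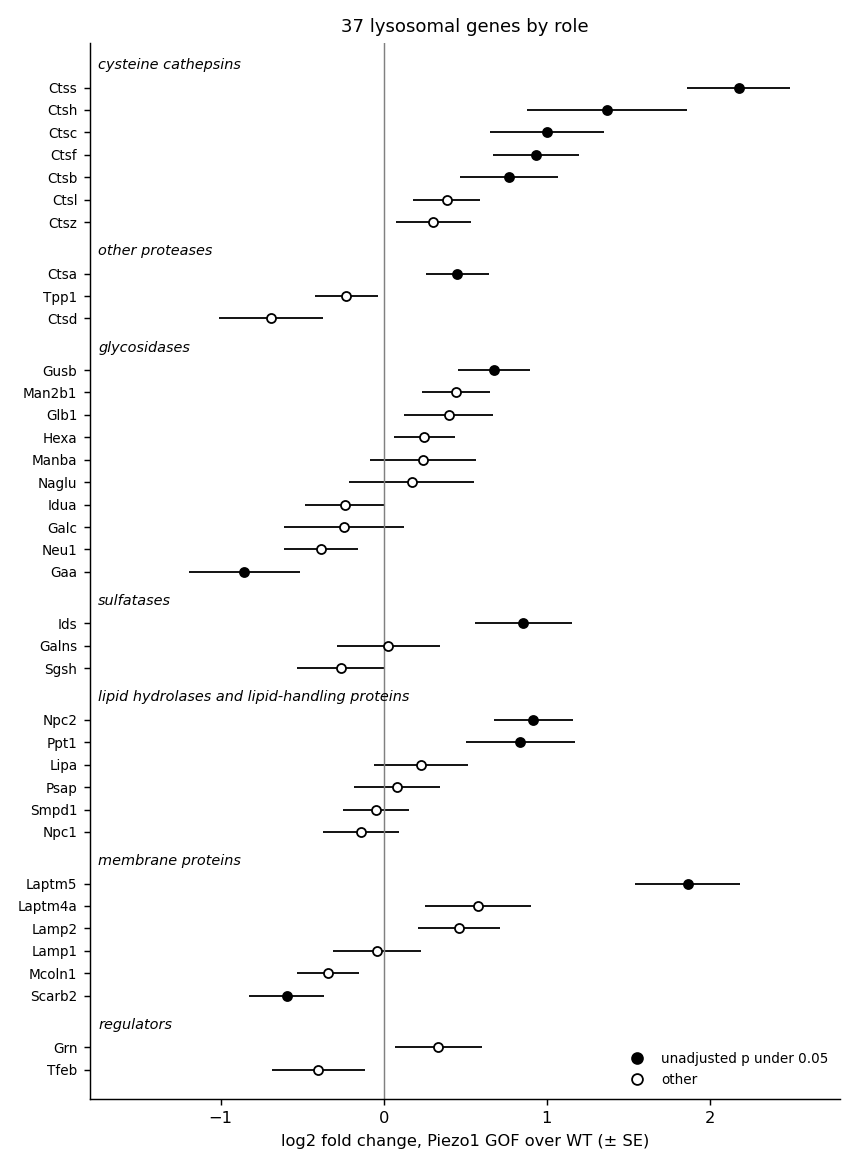
Log2 fold changes (x axis, Piezo1 GOF over WT, bars ± SE, 3 libraries per genotype) of the 37 lysosomal genes, grouped by role on the y axis; filled points have an unadjusted p under 0.05. Ctss and Laptm5 stand farthest to the right at 2.18 and 1.86, all 7 cysteine cathepsins lie right of 0, and Gaa lies lowest at -0.85.

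The 2 myeloid-enriched genes differed most between the genotypes. Ctss encodes cathepsin S, a cysteine protease that stays active at neutral pH and trims the invariant chain of MHC class II in antigen-presenting cells (ENSMUSG00000038642.10; chromosome 3, 95526786 to 95556403, plus strand, mm10). It was at 14.2, 6.64 and 8.82 CPM in WT and 37.2, 40.9 and 55.2 CPM in Piezo1 GOF, and every mutant library was above every WT library. The log2 fold change was 2.18 ± 0.32 (edgeR unadjusted p = 7.54e-05, adjusted p = 0.0572). Over the alternatives the adjusted p ran from 8.07e-07 (DESeq2) to 0.235 (edgeR with replicate number as a block). Laptm5 encodes a lysosomal membrane protein that lowers surface antigen receptor and cytokine receptor levels in immune cells (ENSMUSG00000028581.17; chromosome 4, 130913125 to 130936141, plus strand). It was at 7.09, 6.83 and 14.8 CPM in WT and 37.1, 32.6 and 34.5 CPM in Piezo1 GOF, again without overlap, with a log2 fold change of 1.86 ± 0.32 (edgeR unadjusted p = 2.73e-04, adjusted p = 0.0572; 5.99e-05 to 0.235 over the alternatives). With the muscle score as a covariate the log2 fold changes were 2.07 and 1.83.

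Each of these genes was set against a widely expressed relative in the same library, a ratio in which library scaling cancels. Ctsl, a cysteine cathepsin of nearly all cells, was at 81.9, 81.1 and 70.02 CPM in WT and 83.9, 108 and 113 CPM in Piezo1 GOF (0.39 ± 0.21; edgeR adjusted p = 0.324). With TMM scaling the groups did not overlap for Ctsl, but the nearest libraries were less than 2 CPM apart. Ctss counts came to 17.3%, 8.19% and 12.6% of Ctsl counts in WT and to 44.3%, 38.1% and 48.7% in Piezo1 GOF. The log2 ratio was -3.04 ± 0.54 over WT and -1.20 ± 0.18 over Piezo1 GOF libraries (3 libraries each, ± SD), a difference of 1.84 (two-sided exact permutation p = 0.1, the smallest that 3 against 3 allows). Laptm4a, the widely expressed relative of Laptm5, was at 398, 198 and 263 CPM in WT and 381, 527 and 376 CPM in Piezo1 GOF, and its groups overlapped (0.58 ± 0.32; edgeR adjusted p = 0.343). Laptm5 counts came to 1.78%, 3.45% and 5.63% of Laptm4a counts in WT and to 9.73%, 6.19% and 9.17% in Piezo1 GOF, where the lowest mutant library was just above the highest WT library. The log2 ratio was -4.94 ± 0.83 over WT and -3.61 ± 0.35 over Piezo1 GOF libraries, a difference of 1.33 (two-sided exact permutation p = 0.1, again the smallest possible). Without 1 library the difference ran from 1.56 to 2.10 for Ctss to Ctsl and from 0.90 (without WT replicate 1) to 1.73 for Laptm5 to Laptm4a.

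Against the summed level of the 17 macrophage markers, a measure added after the values were seen, the genotypes overlapped for Ctss, by 1 pair of libraries, and for Laptm5. The log2 ratio of Ctss to that sum was -4.74 ± 0.47 over WT and -4.13 ± 0.13 over Piezo1 GOF libraries (± SD), a difference of 0.62. For Ctss, WT replicate 1 (-4.22) and Piezo1 GOF replicate 1 (-4.23) were nearly level. The log2 ratio of Laptm5 was -4.81 ± 0.42 over WT and -4.46 ± 0.22 over Piezo1 GOF libraries, a difference of 0.35. Of the 35 other genes, 30 had a lower ratio in every mutant library, close to the 81.4% of all genes tested, and for 5 (Ctsc, Ctsf, Ctsh, Ids and Npc2) the groups overlapped. Ctsh had the same mean log2 ratio in both genotypes (-4.50 ± 0.96 over WT and -4.50 ± 0.36 over Piezo1 GOF libraries). Markers of other immune cells were sparse. The 6 lymphocyte markers summed to 0.107, 0.511 and 1.81 CPM in WT and 0.65, 1.0 and 0.89 CPM in Piezo1 GOF, with Ms4a1 at 0 in all 6 libraries, and the 6 dendritic cell markers to 11, 11.8 and 15.3 and 17.4, 10.03 and 30.5 CPM. Among 9 osteoclast genes, Calcr was at 0 in the 3 mutant libraries and Oscar, Dcstamp, Ocstamp and Atp6v0d2 were too low to be tested, while Acp5 and Ctsk, which other cells also make, carried most of the sum (85, 17.9 and 40.2 CPM in WT and 73.5, 142 and 129 CPM in Piezo1 GOF). Whether these cells took part in the lysosomal values was not tested.

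**Figure D2:**
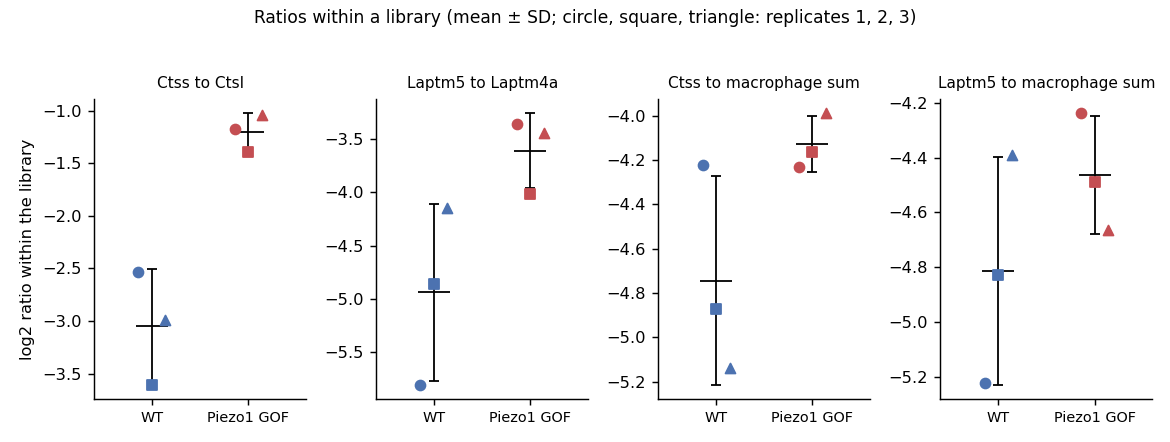
Log2 ratios within each library (y axis, own scale per panel) of Ctss to Ctsl, Laptm5 to Laptm4a, and of Ctss and Laptm5 to the summed CPM of 17 macrophage markers; symbols are libraries, bars mean ± SD of 3 per genotype (x axis). The genotypes separate in the panels against Ctsl and Laptm4a, by 1.84 and 1.33 on average, and overlap in the panels against the macrophage sum.

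All 7 cysteine cathepsin genes among the 37 had positive log2 fold changes, with a median of 0.93. Ctsk, a cathepsin gene outside the 37, is given below with the other hydrolases. At an unadjusted p under 0.05, 5 were higher (71.4%, against 10.2% of all genes tested) and 0 lower (against 9.59%), and 0 passed after adjustment by edgeR. Ctsh, an aminopeptidase, was at 25.1, 5.75 and 9.5 CPM in WT and 25.5, 42.8 and 35.2 CPM in Piezo1 GOF. WT replicate 1 almost reached the lowest mutant library, while the other 2 WT libraries were far below, and the log2 fold change was 1.37 ± 0.49 (edgeR unadjusted p = 0.0209, adjusted p = 0.193; adjusted p = 0.0369 without WT replicate 1). Ctsc, the dipeptidyl peptidase that activates granule serine proteases of immune cells, was at 13.1, 7.22 and 6.79 CPM in WT and 15.2, 14.2 and 24.6 CPM in Piezo1 GOF (1.003 ± 0.35; unadjusted p = 0.0186). For Ctsc, too, WT replicate 1 lay just below the lowest mutant library. Ctsf, an endopeptidase, was at 40.2, 26.7 and 24.8 CPM in WT and 47.6, 72.7 and 54.7 CPM in Piezo1 GOF, with a log2 fold change of 0.93 ± 0.26 (edgeR unadjusted p = 0.00628, adjusted p = 0.145). With TMM scaling its groups did not overlap, but WT replicate 1 and Piezo1 GOF replicate 1 had 374 and 366 counts before scaling. Ctsb, the most abundant of the 7 in both genotypes per length, was at 408, 240.0 and 311 CPM in WT and 447, 615 and 570.0 CPM in Piezo1 GOF (0.77 ± 0.30; unadjusted p = 0.0301). WT replicate 2 was the lowest library for Ctsb, and without it the log2 fold change was 0.60. Ctsz, a carboxypeptidase, had the smallest difference of the 7 at 84.3, 56.5 and 71.3 CPM in WT and 71.5, 88.8 and 102 CPM in Piezo1 GOF, and its groups overlapped (0.31 ± 0.23; edgeR adjusted p = 0.484).

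The 3 proteases of other classes went different ways. Ctsa, a serine carboxypeptidase that also protects beta-galactosidase and neuraminidase in a complex, was at 93.3, 79.5 and 86.4 CPM in WT and 125, 112 and 117 CPM in Piezo1 GOF. The groups were apart and tight, and the log2 fold change was 0.45 ± 0.19 (edgeR unadjusted p = 0.0423, adjusted p = 0.241). Ctsd, the main aspartic protease, was at 323, 610.0 and 386 CPM in WT and 312, 213 and 291 CPM in Piezo1 GOF. The groups did not overlap, but WT replicate 1 and Piezo1 GOF replicate 1 nearly met, and WT replicate 2, the library with the most muscle signal, was far above the rest. The log2 fold change was -0.69 ± 0.32 (unadjusted p = 0.0582), and -0.39 without WT replicate 2. Tpp1, a tripeptidyl peptidase, was at 109 ± 7.45 CPM in the WT libraries against 93.4 ± 7.41 CPM in the Piezo1 GOF libraries (-0.23 ± 0.19). With TMM scaling its groups did not overlap either, but WT replicate 3 and Piezo1 GOF replicate 3 nearly met at 103.1 and 101.9 CPM. Exons of Ctsb overlap those of Fdft1 (log2 fold change -0.80) on the other strand over 16.3% of their length. Exons of Ctsa overlap those of Pltp (0.43) over 13.5% and those of Neurl2 (-0.72) over 8.82%, both on the other strand. Of Ctsd exon bases, 31.5% also belong to the gene model Gm49369 on the same strand, but no gene of that symbol is among the 24411 genes counted. Whether counting used strand is not given in the sources used here, so how reads of Ctsb and Ctsa were divided from those of their neighbours is not known.

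The 10 glycosidases had 6 positive and 4 negative log2 fold changes and a median of 0.21. At an unadjusted p under 0.05, 1 was higher and 1 lower, near the shares of all genes tested (10.2% and 9.59%). Gusb, the beta-glucuronidase that trims glycosaminoglycans, was at 21.4, 14.4 and 19 CPM in WT and 28.1, 30.9 and 28.2 CPM in Piezo1 GOF. Every mutant library was above every WT library (0.67 ± 0.22; edgeR unadjusted p = 0.0136, adjusted p = 0.173). Gaa, the acid alpha-glucosidase that digests glycogen, was the gene with the lowest log2 fold change of the 37 (-0.85 ± 0.34; edgeR unadjusted p = 0.0347, adjusted p = 0.223). It was at 133, 306 and 156 CPM in WT and 133, 108 and 88.1 CPM in Piezo1 GOF. WT replicate 2 was far above the other 5 libraries, WT replicate 1 and Piezo1 GOF replicate 1 were level, and without WT replicate 2 the log2 fold change was -0.40 (unadjusted p = 0.159). Man2b1 (alpha-mannosidase, 37.5 ± 7.28 CPM in the WT libraries against 50.9 ± 2.66 CPM in the Piezo1 GOF libraries) and Hexa (the alpha chain of beta-hexosaminidase, 40.1 ± 3.03 CPM in the WT libraries against 47.7 ± 3.25 CPM in the Piezo1 GOF libraries) were higher in every mutant library with TMM scaling, at log2 fold changes of 0.44 ± 0.21 and 0.25 ± 0.19. Before scaling, Man2b1 had 420 counts in WT replicate 1 and 399 in Piezo1 GOF replicate 1. The other 6 overlapped: Glb1 (beta-galactosidase, 0.40 ± 0.27), Manba (beta-mannosidase, 0.24 ± 0.32), Naglu (which acts on heparan sulfate, 0.17 ± 0.38), Idua (alpha-iduronidase, -0.24 ± 0.24), Galc (-0.24 ± 0.37) and the sialidase Neu1 (-0.38 ± 0.23).

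The 3 sulfatases, with Gusb, Idua and Naglu, digest sulfated glycosaminoglycans. At an unadjusted p under 0.05, 1 of the 3, Ids, was higher (33.3%, against 10.2% of all genes tested) and 0 were lower (against 9.59%). Ids, the iduronate 2-sulfatase, was at 118, 101 and 101 CPM in WT and 142, 282 and 154 CPM in Piezo1 GOF. Piezo1 GOF replicate 2 stood far above the other libraries, and the log2 fold change was 0.86 ± 0.30 (edgeR unadjusted p = 0.0184, adjusted p = 0.188), or 0.50 without that library. Sgsh, the heparan N-sulfatase, was at 18.9, 17 and 17.2 CPM in WT and 13.7, 10.8 and 19.6 CPM in Piezo1 GOF (-0.26 ± 0.27), and the groups overlapped; 21.9% of its exon bases are shared with Card14 on the other strand. Galns was at 11.6 ± 4.19 CPM in the WT libraries against 11.8 ± 1.62 CPM in the Piezo1 GOF libraries (0.029 ± 0.31).

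Of the 6 genes of lipid digestion and lipid handling, 2 were higher at an unadjusted p under 0.05 (33.3%, against 10.2% of all genes tested) and 4 did not pass. Npc2 encodes the soluble carrier that hands cholesterol from lipoproteins to the membrane protein NPC1. It was at 60.4, 39.98 and 42.6 CPM in WT and 82.6, 110.2 and 77.1 CPM in Piezo1 GOF, with no overlap (0.92 ± 0.24; edgeR unadjusted p = 0.00455, adjusted p = 0.133). By DESeq2 the adjusted p of Npc2 was 0.0313, and by edgeR's exact test 0.0366. Its partner Npc1 was at 43.2, 66.9 and 43.1 CPM in WT and 42.1, 48.5 and 48.7 CPM in Piezo1 GOF. Its groups overlapped (-0.14 ± 0.23; edgeR adjusted p = 0.765), and the difference between the pair was not tested. Ppt1, the thioesterase that removes palmitate from proteins, was at 52.5, 20.2 and 27.6 CPM in WT and 55.3, 63.3 and 60.4 CPM in Piezo1 GOF. The 3 mutant libraries were alike, while WT replicate 1 was near them and the other WT libraries were far lower (0.84 ± 0.33; edgeR unadjusted p = 0.0328, adjusted p = 0.22; adjusted p = 0.0448 without WT replicate 1). Lipa (acid lipase, 0.23 ± 0.29), Psap (0.082 ± 0.26) and Smpd1 (acid sphingomyelinase, -0.044 ± 0.20) had overlapping groups and log2 fold changes no larger than their SE.

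The 6 membrane proteins had 3 positive and 3 negative log2 fold changes, with Laptm5 the only one above 1. Scarb2, which encodes LIMP-2, the receptor that brings beta-glucocerebrosidase to the lysosome, was at 39.4, 51.2 and 40.6 CPM in WT and 35.2, 22.7 and 29.1 CPM in Piezo1 GOF. Every mutant library was below every WT library (-0.59 ± 0.23; edgeR unadjusted p = 0.0299, adjusted p = 0.215), and with the muscle score as a covariate its unadjusted p was 0.114. Mcoln1, the calcium channel TRPML1 of the lysosome, was at 33.4 ± 3.1 CPM in the WT libraries against 26.4 ± 1.44 CPM in the Piezo1 GOF libraries (SD, n = 3), also without overlap (-0.34 ± 0.19; edgeR adjusted p = 0.335). Of the structural glycoproteins, Lamp1 was at 457 ± 27.3 CPM in the WT libraries against 445 ± 89.7 CPM in the Piezo1 GOF libraries, with overlapping groups (-0.040 ± 0.27). Lamp2, which also serves chaperone-mediated autophagy, was at 189 ± 17.7 CPM in the WT libraries against 260.3 ± 61.2 CPM in the Piezo1 GOF libraries (0.46 ± 0.25; edgeR adjusted p = 0.334). With TMM scaling every mutant library was above every WT library for Lamp2. Before scaling, WT replicate 1 had 1905 counts and Piezo1 GOF replicate 1 had 1698, so this order depends on the scaling.

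**Figure D3:**
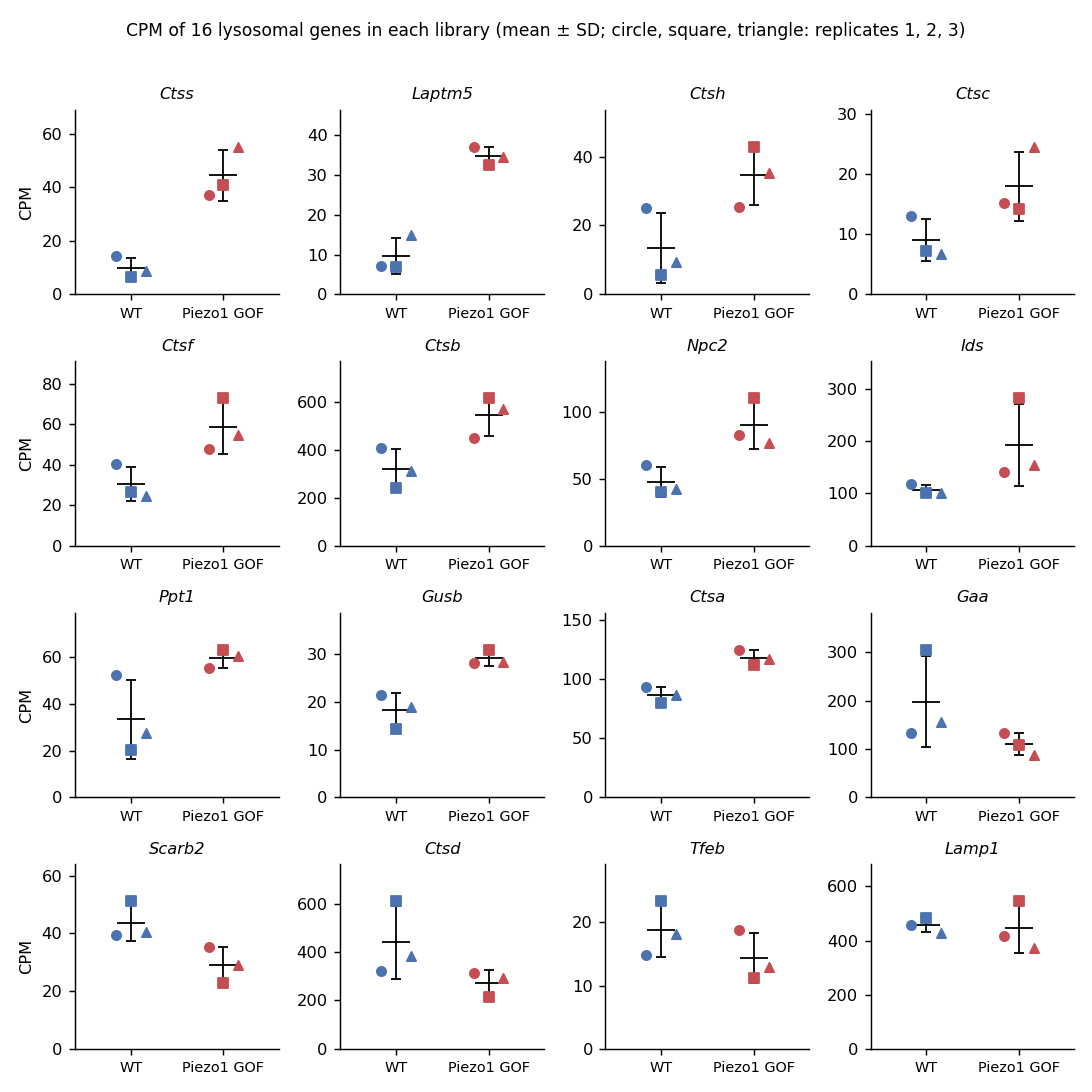
CPM (y axis from 0, own scale per panel) of 16 lysosomal genes in the 3 WT and 3 Piezo1 GOF libraries (x axis); symbols are replicates 1 to 3 and bars mean ± SD. Ctss and Laptm5 show the widest gaps, WT replicate 1 lies nearest to the mutant libraries for Ctsh, Ctsc and Ppt1, and WT replicate 2 is the highest library for Gaa, Ctsd, Scarb2 and Tfeb.

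The transcripts of the regulators did not pass. Tfeb, the transcription factor gene named above, was at 14.8, 23.3 and 18.1 CPM in WT and 18.7, 11.1 and 13 CPM in Piezo1 GOF, and the groups overlapped (-0.40 ± 0.28; edgeR adjusted p = 0.454). TFEB is controlled largely by phosphorylation and entry to the nucleus, which RNA counts do not measure. Its relatives Tfe3 (19.9 ± 3.95 CPM in the WT libraries against 22.8 ± 4.71 CPM in the Piezo1 GOF libraries; 0.19 ± 0.25) and Mitf (34.7 ± 13.6 CPM in the WT libraries against 41.4 ± 6.02 CPM in the Piezo1 GOF libraries; 0.25 ± 0.29) had overlapping groups as well, and Tfec had too few counts to be tested. Grn, which encodes progranulin, a secreted precursor cut into granulins in the lysosome, was at 209, 116 and 148 CPM in WT and 184, 194 and 219 CPM in Piezo1 GOF (0.34 ± 0.27; edgeR adjusted p = 0.503).

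A list of 27 other lysosomal hydrolases was counted in the same way. Of the 27 tested, 5 were higher (18.5%, against 10.2% of all genes) and 1 lower (3.7%, against 9.59%) with an unadjusted edgeR p under 0.05, and 0 passed after adjustment. The median log2 fold change was 0.46, and 22 were positive. The alpha-fucosidase Fuca1 was at 42, 22.5 and 31.1 CPM in WT and 73.1, 79.8 and 63.2 CPM in Piezo1 GOF (1.18 ± 0.26; edgeR unadjusted p = 0.00143). The ganglioside activator Gm2a had 56 ± 21 CPM in the WT libraries against 121 ± 28.1 CPM in the Piezo1 GOF libraries (1.11 ± 0.31), and the mannosidase Man2b2 38.3 ± 9.73 CPM in the WT libraries against 73.2 ± 7.24 CPM in the Piezo1 GOF libraries (0.94 ± 0.24). Ctsk, the collagen-cleaving cathepsin of osteoclasts and of some fibroblasts, was at 47.3, 4.47 and 28.7 CPM in WT and 44.5, 108 and 71.9 CPM in Piezo1 GOF. WT replicate 2 was far below the other 5 libraries for Ctsk, WT replicate 1 lay within the mutant range, and the log2 fold change was 1.49 ± 0.68 (unadjusted p = 0.0559).

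Genes for acidification, sorting and signalling at the lysosome did not share 1 direction. At an unadjusted p under 0.05, 4 of 18 V-ATPase subunits tested were higher (22.2%, against 10.2% of all genes) and 1 lower (5.56%, against 9.59%), and the median log2 fold change was -0.037. Atp6v0e was at 44.4, 34.1 and 35.7 CPM in WT and 75.7, 123 and 68.4 CPM in Piezo1 GOF (1.22 ± 0.27; edgeR unadjusted p = 0.00136), the catalytic subunit gene Atp6v1a at a log2 fold change of 0.65 ± 0.22 and Tcirg1, the membrane subunit of osteoclasts and macrophages, at 0.56 ± 0.21. Among 21 other membrane proteins, 2 were higher (9.52%, near the 10.2% of all genes) and 0 lower (against 9.59%), with a median of 0.14. The 2 were the macrophage sialomucin Cd68 (1.24 ± 0.34) and the nucleoside transporter Slc29a3 (0.84 ± 0.25). Of 13 sorting genes 1 was higher (7.69%, under the share of all genes), Gnptg, a subunit of the enzyme that makes the mannose 6-phosphate tag (0.78 ± 0.28), and the receptors M6pr (0.17 ± 0.19) and Igf2r (-0.53 ± 0.29) did not pass.

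Autophagy genes and genes of the mTORC1 platform were counted in the same way. Of 21 autophagy genes, 1 was higher (4.76%, against 10.2% of all genes) and 4 were lower (19%, against 9.59%) at an unadjusted edgeR p under 0.05, with a median log2 fold change of -0.13. The higher one was the fusion SNARE gene Vamp8 (0.96 ± 0.29). Atg9a, a lipid scramblase of the growing autophagosome, was at 87.5, 183 and 102 CPM in WT and 83.7, 32.7 and 65.5 CPM in Piezo1 GOF (-1.03 ± 0.39). The LC3 relative Gabarapl1 was at a log2 fold change of -0.64 ± 0.23. Of 18 MiT and mTORC1 genes tested, 1 was higher (5.56%, against 10.2% of all genes) and 3 were lower (16.7%, against 9.59%), with a median of -0.10. The higher one was the GTPase gene Rragc (0.67 ± 0.21). Its relative Rragd was at 88.7, 155 and 165 CPM in WT and 65.4, 30.2 and 60.2 CPM in Piezo1 GOF (-1.39 ± 0.35; unadjusted p = 0.00323), and Flcn, which acts on these GTPases, at -0.75 ± 0.27. The mean summed level of the skeletal muscle markers was also lower in Piezo1 GOF (54802 CPM, against 133357 CPM in WT). The sums of WT replicate 1 (77337 CPM) and Piezo1 GOF replicate 1 (76408 CPM) were nearly level. Of the 18 muscle markers, 17 had negative log2 fold changes, and 1 was lower at an unadjusted edgeR p under 0.05 (5.56%, against 9.59% of all genes). Whether the muscle signal is related to the lower autophagy and mTORC1 values was not tested.

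**Figure D4:**
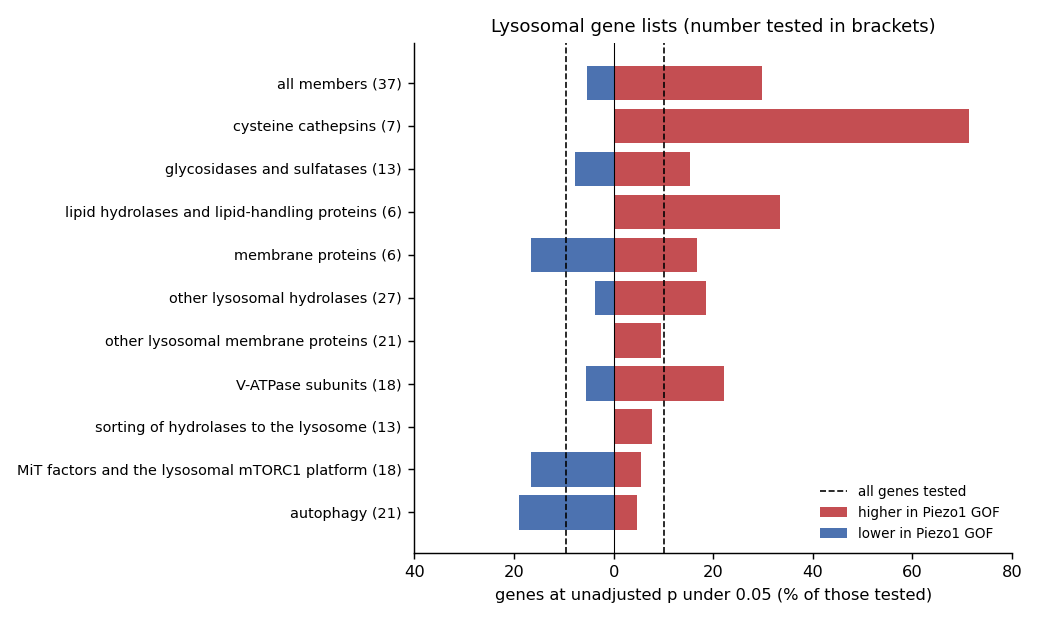
Share of the tested genes of each list (y axis, number tested in brackets) with an unadjusted p under 0.05, higher in Piezo1 GOF to the right and lower to the left (x axis, %); dashed lines give the shares of all genes tested, 10.2% and 9.59%. The 7 cysteine cathepsins among the 37 genes reach 71.4% on the higher side, while autophagy genes (19%) lie farther on the lower side than on the higher one (4.76%).

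The cystatins inhibit cysteine cathepsins, and all 3 tested had an unadjusted p under 0.05, 2 of them higher and 1 lower (against 10.2% and 9.59% of all genes tested). Cst3, which encodes the secreted cystatin C, was at 1885, 1255 and 1188 CPM in WT and 5506, 9635 and 3509 CPM in Piezo1 GOF. The groups did not overlap, and Cst3 had a log2 fold change of 2.11 ± 0.52 (edgeR unadjusted p = 0.00287, adjusted p = 0.12). The intracellular inhibitor Cstb was at 14.4 ± 4.56 CPM in the WT libraries against 26.4 ± 11.2 CPM in the Piezo1 GOF libraries (0.88 ± 0.35), and Cst6, at 3.65, 8.75 and 6.0 CPM in WT and 3.38, 1.6 and 2.15 CPM in Piezo1 GOF, had a log2 fold change of -1.38 ± 0.48. The other 4 of the 7 cystatins listed had too few counts to be tested.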

How the data were processed

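The authors deposited expected counts for each gene, unscaled; STAR, RSEM and edgeR, without versions or roles, and build mm10 are named in the submitters' processing notes. In each library, 7.8% to 8.88% of the values were not whole numbers. Annotation and strand setting: not given in the sources used here. Libraries were grouped by the genotype in their titles. Counts were rounded, genes filtered with filterByExpr (minimum count 10), library sizes scaled by TMM (factors 0.897 to 1.1), and genotypes compared over 13466 genes with the two-sided quasi-likelihood F-test of edgeR, adjusted by Benjamini-Hochberg, at 0.05. SE is the log2 fold change divided by the square root of F. Counts of members are read against the share of all genes called. The chain was tested on simulated counts of 13466 genes for Piezo1 GOF against WT: at an adjusted p under 0.05 it called 21.3% of 47 genes changed 2-fold and 77.1% of 48 changed 4-fold, counted over those past the filter.

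The members and lists were chosen with earlier results of these data known. Genes named with values were the 2 myeloid-enriched genes and their relatives, Tfeb, each member with an unadjusted p under 0.05, the extremes of each role group, of other lists up to 3 genes with the smallest p under 0.05, and in any case Ctsk, Tfe3, Mitf, Cst3, M6pr and Igf2r; the remaining members are given briefly. Alternatives were other scaling, other filters, DESeq2, the exact test, limma voom, a replicate block, muscle terms, and leaving out each library. Libraries of 1 genotype differed beyond sampling noise (chi-square divided by its degrees of freedom 40.9 to 141). No protein sequences were used here. Software was R 4.3.3, edgeR 4.0.16, limma 3.58.1, DESeq2 1.42.0, Python 3.11.15 and matplotlib 3.10.9.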

Additional observations from a re-analysis of the deposited data

How the results depend on the processing

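Over 16 alternatives each, 29 of the 37 genes kept the sign of their log2 fold change and 8 did not, all 8 with a main value no larger than its SE. The genes past the adjusted threshold numbered 2 without a count filter, 4 by DESeq2, 4 by edgeR's exact test and 2 by limma voom, and 0 to 3 when 1 library was left out, against 0. At an unadjusted p under 0.05, 6 were higher with the muscle score as a covariate and 5 to 14 when 1 library was left out, against 11; 1 was lower with total counts alone, 0 with the muscle covariate, and 0 to 3 when 1 library was left out, against 2. The shares of all genes called in these settings changed as well and are given in the Results. The median log2 fold change of the 37 was 0.37 with total counts alone, where the median of all genes was 0.10, and 0.15 to 0.41 when 1 library was left out, against 0.25. Log2 fold changes that changed sign were those of Smpd1 (0.0434 with total counts, 0.0127 by voom and 0.00988 with the muscle covariate), Lamp1 (0.0691 with total counts) and Galns (-0.00532 by voom). With 1 library left out, these and others ran as follows: Manba -0.0352 to 0.519, Naglu -0.168 to 0.525, Lipa -0.0244 to 0.418, Npc1 -0.252 to 0.103, Psap -0.00798 to 0.176, Smpd1 -0.15 to 0.0322, Lamp1 -0.188 to 0.0812, Galns -0.166 to 0.325. The cause of these changes was not tested. Replicate numbers did not pair the libraries (correlations of same-numbered deviations -0.207 to -0.0526, so no same-numbered pair was above 0.1). Among pairs with different numbers the highest correlation was 0.165, for WT replicate 2 with Piezo1 GOF replicate 1. With the replicate block, 8 genes had an unadjusted p under 0.05 and higher levels (against 7.57% of all genes) and 0 lower levels (against 5.98%). The median was 0.30, and 0 passed after adjustment. The differences of the log2 ratios stayed at 1.84 and 1.33 by construction, since the mean of paired differences equals the difference of the means. Their sign-flip exact permutation p was 0.25, the smallest possible. The lowest count of any of the 37 genes was 37.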

Other observations

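Marker lists of the cell types not described above gave these summed levels, in CPM, for replicates 1 to 3. The 5 endothelial markers summed to 662, 492 and 563 in WT and to 436, 349 and 526 in Piezo1 GOF, and the groups overlapped. The 5 adipocyte markers summed to 478, 299 and 219 in WT and to 437, 781 and 1111 in Piezo1 GOF. Their sums overlapped through WT replicate 1 and Piezo1 GOF replicate 1, while all 5 had positive log2 fold changes (median 1.26) and 4 were higher at an unadjusted edgeR p under 0.05 (against 10.2% of all genes). Their part in the lysosomal values was not tested. The 5 erythroid markers summed to 36, 13.1 and 11.2 and 68.4, 21 and 71.8, the 4 mast cell markers to 41.5, 7.54 and 5.66 and 11.1, 5.52 and 11.6, and the 5 neutrophil markers in the table to 0.43, 0.128 and 0.226 and 4.42, 3.51 and 1.93, in the same order of genotypes. The neutrophil sums did not overlap between the genotypes, at levels where 1 of the 5 markers passed the count filter.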
